A study of Mus musculus with 24 samples.

Results

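The 6 genes described here encode proteins that carry or control magnesium at cell membranes: the channel kinases Trpm6 and Trpm7, the endoplasmic reticulum subunit Magt1, and the cyclin M family members Cnnm2, Cnnm3 and Cnnm4. They were chosen by name, as the members of this group that have a row in the deposited table, and make up 6 of its 11140 genes. The table holds RNA sequencing counts of purified splenic B lymphoma cells from the C57BL/6 strain. All mice carried a transgene for Bcl6, the germinal centre repressor, which leads to B cell lymphomas. The transgene's promoter and the ages of the animals were not given. The T cell sufficient group holds 12 lymphomas from mice with the genotype Bcl6Tg/+. The T cell deficient group holds 11 lymphomas with the genotype Bcl6Tg/+CD3Epsilon-/-, mice without the CD3 epsilon chain that the T cell receptor complex and T cell development need. Libraries were sequenced in 2 runs, with 7 sufficient and 5 deficient libraries in run 1 and 5 and 6 in run 2. The question is how lymphomas that grew without T cells differ from those that grew with them. Nothing in the labels says that each lymphoma came from its own animal, so the p-values measure the spread between these samples.

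Magnesium enters mammalian cells mainly through the related channels TRPM6 and TRPM7, which are ion pores fused to a kinase domain and can assemble together. TRPM7 is made in nearly all cells and lymphocytes depend on it for growth, whereas TRPM6 is best known from the kidney tubule and the intestine, where it takes up magnesium for the whole body. CNNM proteins bind magnesium and ATP in the cytoplasm and are linked to magnesium efflux, and PRL phosphatases bind and restrain them. MAGT1 is a subunit of the oligosaccharyltransferase that attaches sugars to proteins, its loss in humans causes an X-linked immunodeficiency, and its place as a transporter is debated.

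Depth, the total count over the listed genes, was 7.58 to 30.61 M (mega) for single libraries, with means of 15.7 M ± 6.00 (n = 12, SD) in sufficient and 20.6 M ± 6.03 (n = 11, SD) in deficient libraries. The 7 B cell markers, Cd79a, Ms4a1 and the others, were counted in every library and their summed level was 4437 to 10210 CPM (counts per M of library total, scaled by TMM, the unit of all levels below) in sufficient and 3239 to 7427 CPM in deficient lymphomas. The 7 T cell markers in the table summed to 100.1 to 406 CPM and 28.2 to 347 CPM, most of it Cd2 by the group means (189 and 75.1 CPM). This sum thus follows mostly 1 gene, and which cells its transcripts came from was not tested. Monocyte and macrophage markers, all 14 in the table, summed to 209 to 2023 CPM and 96.3 to 482 CPM. The test described in the next paragraph called 11.7% of all genes as lower in the deficient group and 10.6% as higher. By this test 4 of 7 B cell markers fell, and 1 of 7 T cell markers, Cd2. So did 3 of 14 monocyte and macrophage, 1 of 4 plasma cell and 2 of 4 stromal and endothelial markers. Of the others, 1 of 4 NK cell markers rose and 0 of 5 erythroid markers were called. The part of these cells in the results that follow was not tested. In such bulk samples, fewer cells of a type and less RNA per cell cannot be told apart. Cd3e, the gene of the deleted chain, was at 0 in 2 sufficient libraries and counted in all 11 deficient ones, 4 of them above every sufficient library. Its means of 0.966 and 2.47 CPM run against the labels (log2 fold change 1.07 ± 0.57 SE, edgeR adjusted p = 0.179). As the deleted part is not given, this does not check the genotypes, and the groups keep their labelled names. Sufficient libraries 5, 6, 9, 10 and 11 each held both Xist and Y-linked transcripts at 5 CPM or more, so Trpm6 and Cnnm4 are also given without these 5, and other genes where their call changed. Y-linked transcripts at that level with Xist below it were uneven between the groups. They were found in sufficient libraries 4 and 7, and in deficient libraries 1, 3, 4, 6, 7, 8, 9 and 11.

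Trpm6 and Cnnm4 were higher in T cell deficient lymphomas, and none of the 6 genes passed the test in the other direction. The test was quasi-likelihood in edgeR, fitted with run and group, with Benjamini-Hochberg adjustment over all 11020 genes tested and a threshold of 0.05. All 6 genes passed the filter on low counts. Every gene in the deposited table is above 1 CPM in at least 7 libraries. Trpm6 was above 1 CPM in sufficient libraries 5 and 9 only, and in every deficient library except library 6. Its row in the table therefore depends on the group where it is high, which limits the reading of its fold change, its p-values, its rank and the count of 2. In the same test 22.2% of all genes were called, 10.6% as higher and 11.7% as lower, so 2 of 6 is not far from the share among all genes. The median log2 fold change was 0.25 over the 6 genes and -0.0064 over all genes tested. No gene of the 6 had groups whose CPM ranges were fully apart, which held for 0.163% of all genes.

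**Figure D1:**
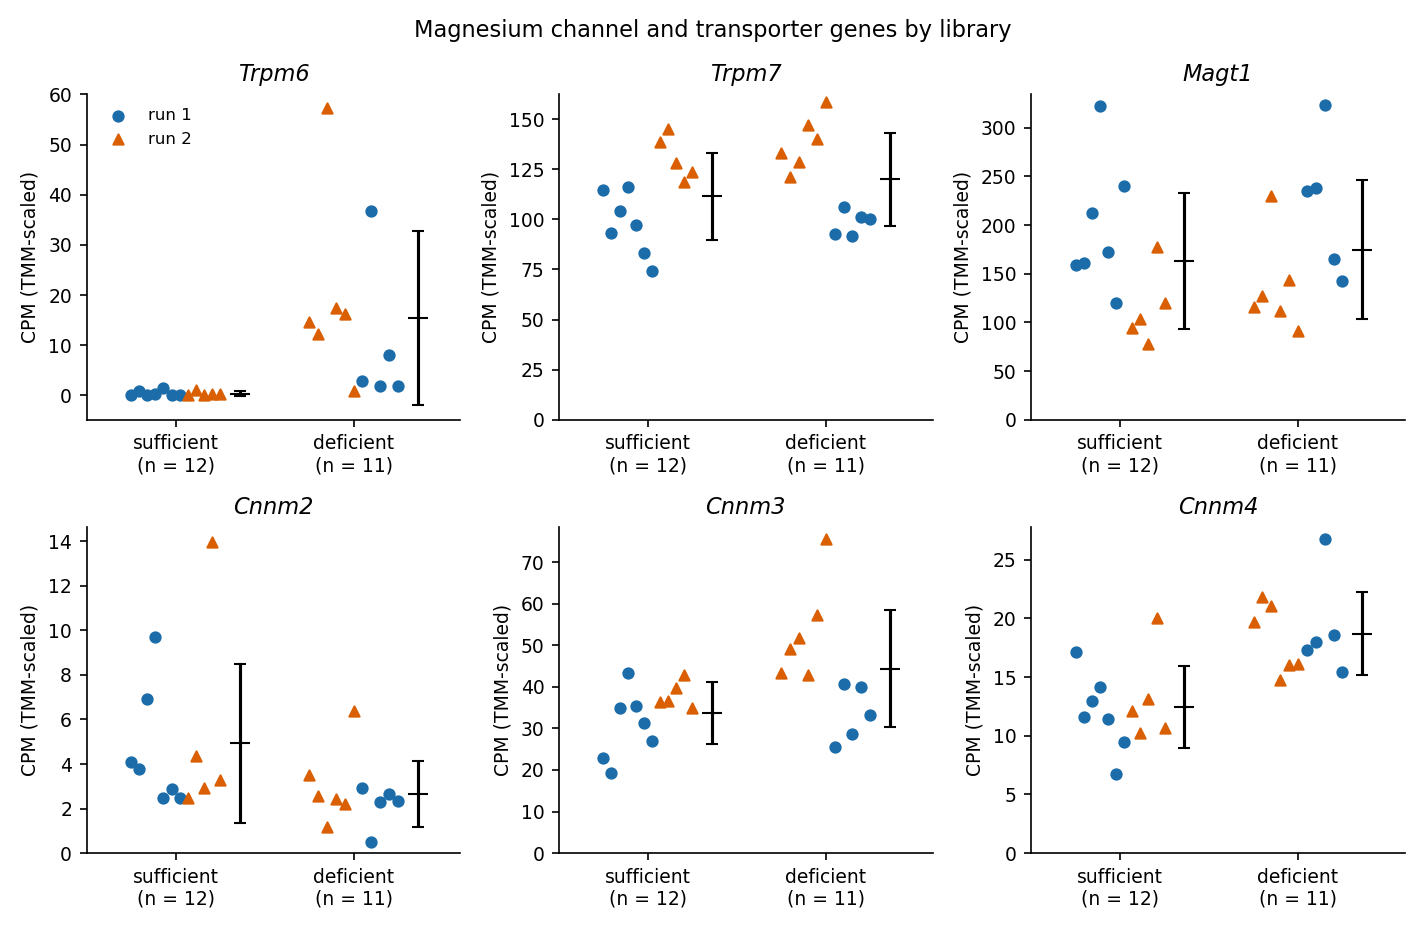
CPM (TMM-scaled, y axis) of the 6 genes in each of the 23 libraries, by group (x axis) and run (circles run 1, triangles run 2), with mean and SD bars beside the points. Trpm6 points lie near 0 in all sufficient libraries and spread from 0.874 to 57.2 CPM in deficient ones, whereas the Trpm7 and Magt1 points of the groups overlap widely.

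Trpm6 occupies bases 18749983 to 18892511 of chromosome 19, plus strand (GENCODE M21, GRCm38). The 300 bases around its annotated start, and those of the widely expressed Trpm7, are shown to set the promoters of the channel kinases side by side. Both come from the RefSeq table for GRCm38.p6 and run from 250 bases before to 50 after the start, 5′ to 3′ on the gene's strand. They are chr19:18749480-18749779, plus strand, for Trpm6, whose RefSeq start lies before the GENCODE one, and chr2:126876212-126876511, minus strand, for Trpm7. Capitals mark matches to the motifs searched on both strands, which were the TATA box TATAAA, the CCAAT box, the GC box GGGCGG, the E box CACGTG and the palindrome TTCNNNGAA bound by STAT proteins.
Trpm6: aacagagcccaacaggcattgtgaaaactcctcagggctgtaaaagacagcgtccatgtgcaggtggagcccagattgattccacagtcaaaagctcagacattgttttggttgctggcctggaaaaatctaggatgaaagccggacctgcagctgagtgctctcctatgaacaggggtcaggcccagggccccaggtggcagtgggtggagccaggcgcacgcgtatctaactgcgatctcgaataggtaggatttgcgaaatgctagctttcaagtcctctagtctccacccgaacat
Trpm7: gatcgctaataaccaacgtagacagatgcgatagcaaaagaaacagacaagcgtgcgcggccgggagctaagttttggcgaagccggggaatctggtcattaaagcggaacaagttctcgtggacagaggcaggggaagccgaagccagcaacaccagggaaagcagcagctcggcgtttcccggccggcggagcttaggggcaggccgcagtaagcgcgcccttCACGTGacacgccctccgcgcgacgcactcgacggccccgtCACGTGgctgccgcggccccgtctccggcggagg
The Trpm7 window holds 35 CpG dinucleotides, as many as or more than 93.8% of the 32851 promoters in the table. It holds CACGTG at positions -25 and 17 from the start, a motif found in 7.15% of promoters. The Trpm6 window holds 9 CpG, against a median of 7, and none of the 5 motifs. Across all promoters TATAAA is found in 13.6%, CCAAT in 37.4%, GGGCGG in 35.7% and TTCNNNGAA in 8.3%. These matches describe letters only, and no binding was measured.

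In the sufficient group Trpm6 was close to absent. Its counts in libraries 1 to 12 were 0, 12, 0, 2, 34, 0, 0, 1, 13, 0, 3 and 3. In CPM the lowest was 0, the median 0.123 and the highest 1.41. The 5 libraries at 0 allow a level of up to 0.103 to 0.406 CPM (3 counts, which covers counting error only). Counts in deficient libraries 1 to 11 were 237, 206, 1217, 400, 198, 20, 66, 446, 51, 236 and 55. Levels were thus lowest in library 6 at 0.874 CPM, with a median of 12.3 and a highest value of 57.2 CPM in library 3. Of the 11 deficient libraries 10 lay above every sufficient library, and library 6 lay inside the sufficient range. From the other side, 10 of 12 sufficient libraries lay below every deficient one, and libraries 5 and 9, at 1.41 and 1.06 CPM, were the exceptions.

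The mean level of Trpm6 was 0.324 CPM ± 0.485 (n = 12, SD) in sufficient and 15.5 CPM ± 17.4 (n = 11, SD) in deficient lymphomas. The fitted log2 fold change was 5.36 ± 0.92 SE, with a 95% interval of 3.45 to 7.27 (41.1-fold, edgeR adjusted p = 0.000689), and 3 of the 11020 genes had a larger one in either direction. As many sufficient libraries are at 0, the size depends on the prior count: the difference of mean log2 CPM was 4.94 with a prior count of 2 and 5.97 with 0.5 (each p = 5e-05, two-sided permutation within runs). Within run 1 the means were 0.341 CPM ± 0.552 (n = 7, SD) and 10.3 CPM ± 15.1 (n = 5, SD), an exact two-sided permutation p of 0.00253 over 792 splits. Run 2 gave 0.299 CPM ± 0.435 (n = 5, SD) and 19.8 CPM ± 19.3 (n = 6, SD), with an exact p of 0.00649 over 462 splits. The group difference in Trpm6 had the same sign in each run, and the runs themselves did not differ beyond their spread (edgeR log2 fold change 0.39, adjusted p = 0.751). As the gene has its row through the deficient group, the p-values of its group difference, here and below, carry the same limit as its size. In the authors' deposited table, made with limma, the log2 fold change is 5.39 and the adjusted p is 0.056. Fitted with run 1 alone across all genes, edgeR gave 4.78 with an adjusted p of 0.136. Leaving out the 5 libraries with Xist and Y-linked transcripts together, among them libraries 5 and 9, the log2 fold change was 6.13 (edgeR adjusted p = 0.00215).

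Deficient lymphomas differed widely among themselves in Trpm6. Libraries 3 and 8 stood highest, at 57.2 and 36.8 CPM. A middle set, libraries 1, 2, 4, 5 and 10, lay between 8.05 and 17.3 CPM. The lowest 4 were libraries 7, 11, 9 and 6, at 2.80, 1.93, 1.86 and 0.874 CPM. Each run contributed a library to the top and to the bottom of this order, but libraries 7, 9 and 11 of the lowest 4 were from run 1. The deficient median was 2.80 CPM in run 1 and 15.4 CPM in run 2. Library 6 also had the highest summed T cell markers of the deficient group, 347 CPM against 28.2 to 101 CPM in the other 10. That sum was mostly Cd2, at 301 CPM, with Cd8b1 at 38.6 CPM. Cd3e was at 5.77 CPM, its highest level in any library, and Thy1 at 1.005 CPM. Cd3g and Cd4 were each at 0.44 CPM and Cd28 at 0. The part of this in its low Trpm6 was not tested.

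Trpm7, on chromosome 2 at 126791565 to 126876230 on the minus strand, encodes the channel kinase that most cells rely on. Its lowest, median and highest levels were 74.2, 116 and 145 CPM in sufficient and 91.6, 121 and 159 CPM in deficient lymphomas. The groups overlapped over most of their range. Means were 111 CPM ± 21.7 (n = 12, SD) and 120 CPM ± 23.2 (n = 11, SD), a log2 fold change of 0.04 ± 0.07 SE that did not pass the test (edgeR adjusted p = 0.705). The 95% interval was -0.11 to 0.20, so a group difference in Trpm7 beyond 0.20 on the log2 scale lies outside it. Run moved this gene more than group did: it was higher in run 2 by 0.46 ± 0.07 SE on the log2 scale (edgeR adjusted p = 4.59e-05), in a test that called 36.3% of all genes. Within runs the levels were tight, at 97.6 CPM ± 15.7 (n = 7, SD) and 98.4 CPM ± 6.10 (n = 5, SD) in run 1, and 131 CPM ± 10.9 (n = 5, SD) and 138 CPM ± 13.5 (n = 6, SD) in run 2.

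Divided by the length of merged exons, the levels of the channel kinases can be set against each other. Trpm6 averaged 0.0419 CPM per kb ± 0.0629 (n = 12, SD) and Trpm7 9.85 ± 1.92 in sufficient lymphomas. The deficient means were 2.00 ± 2.25 (n = 11, SD) for Trpm6 and 10.6 ± 2.05 CPM per kb for Trpm7. Trpm6 thus made up 0.427% ± 0.671 (n = 12, SD) of the sum of both in sufficient lymphomas, from 0 to 2.08%. In the deficient group it made up 13.7% ± 12.5 (n = 11, SD), from 0.801% in library 6 to 39.5% in library 3, with 33.7% in library 8. Trpm7 was the more abundant transcript in all 23 libraries.

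**Figure D2:**
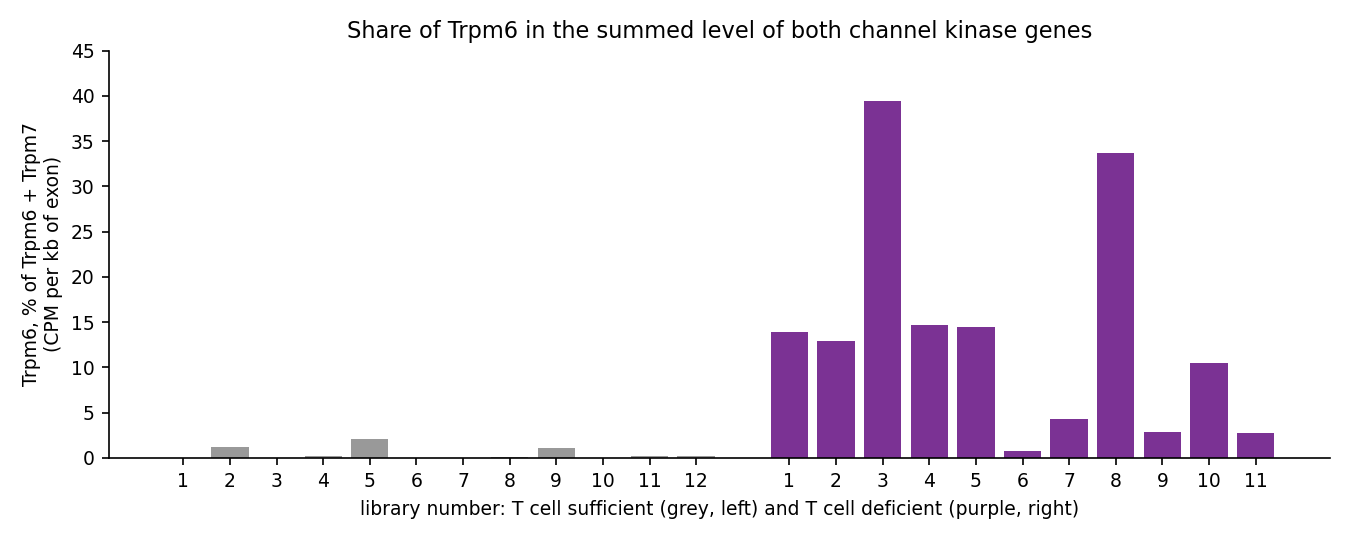
Trpm6 as a percentage of the summed Trpm6 and Trpm7 levels (y axis, CPM per kb of exon) in each library (x axis), sufficient in grey and deficient in purple. No sufficient bar exceeds 2.08%, and deficient bars run from 0.801% to 39.5%.

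Cnnm4 was the second gene of the group that rose. It occupies bases 36471620 to 36508764 of chromosome 1, plus strand, and its protein exports magnesium from epithelial cells such as those of the intestine. Levels in sufficient lymphomas were 6.78 CPM at the lowest, 11.8 at the median and 20.05 at the highest, and in deficient ones 14.7, 18.0 and 26.8 CPM. All 11 deficient libraries lay above the sufficient median, 10 of 12 sufficient libraries lay below every deficient one, and libraries 1 and 11, at 17.1 and 20.05 CPM, did not. Means were 12.5 CPM ± 3.49 (n = 12, SD) and 18.7 CPM ± 3.53 (n = 11, SD), a log2 fold change of 0.58 ± 0.15 SE (1.49-fold, 95% interval 0.27 to 0.89, edgeR adjusted p = 0.00905). The two-sided permutation p within runs was 0.00025, and the exact p was 0.00631 in run 1 and 0.0346 in run 2. The runs did not differ beyond their spread in Cnnm4 (log2 fold change 0.04, edgeR adjusted p = 0.857). The authors' deposited table gives 0.56 with an adjusted p of 0.0103. Leaving out the 5 libraries with both kinds of sex transcript gave 0.60 (edgeR adjusted p = 0.0111). Fitted alone across all genes, run 1 gave 0.68 (edgeR adjusted p = 0.185) and run 2 gave 0.47 (0.14), so neither run passed by itself.

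Cnnm3 lies next to Cnnm4 on the same strand of chromosome 1, at 36511867 to 36528237, with 3.10 kb between the genes. Its protein is a partner of the PRL phosphatases. The 2 promoters are shown because these genes of 1 family lie side by side. They are chr1:36471347-36471646 for Cnnm4 and chr1:36511617-36511916 for Cnnm3, both on the plus strand, from the same RefSeq table with the same motifs in capitals.
Cnnm4: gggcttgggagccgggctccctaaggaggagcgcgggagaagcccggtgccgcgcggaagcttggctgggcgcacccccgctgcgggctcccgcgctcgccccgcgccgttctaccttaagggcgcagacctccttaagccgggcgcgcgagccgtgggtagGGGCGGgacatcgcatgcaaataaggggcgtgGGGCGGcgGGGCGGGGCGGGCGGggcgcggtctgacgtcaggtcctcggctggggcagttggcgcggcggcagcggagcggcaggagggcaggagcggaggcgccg
Cnnm3: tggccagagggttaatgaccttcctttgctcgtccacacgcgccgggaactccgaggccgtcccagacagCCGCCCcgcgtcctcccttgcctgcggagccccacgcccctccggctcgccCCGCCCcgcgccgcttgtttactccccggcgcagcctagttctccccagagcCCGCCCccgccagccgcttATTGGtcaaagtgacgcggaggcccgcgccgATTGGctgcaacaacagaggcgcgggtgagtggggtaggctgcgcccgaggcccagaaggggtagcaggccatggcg
With 42 and 32 CpG, these windows hold as many as or more than 97.4% and 91.4% of all promoters. Cnnm4 has 5 matches to GGGCGG, of which those at -48, -43 and -39 overlap each other, and no CCAAT. Cnnm3 has 3 matches to GGGCGG and 2 to CCAAT, at -58 and -27.

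Levels of Cnnm3 were 19.4, 35.2 and 43.3 CPM (lowest, median and highest) in sufficient and 25.5, 42.9 and 75.6 CPM in deficient lymphomas. Deficient libraries 1, 2, 3, 5 and 6, all from run 2, lay above every sufficient library, and the other 6 lay inside the sufficient range. Means were 33.7 CPM ± 7.43 (n = 12, SD) and 44.4 CPM ± 14.1 (n = 11, SD), and the log2 fold change of 0.31 ± 0.13 SE did not pass the test (95% interval 0.03 to 0.58, edgeR p = 0.0306, adjusted p = 0.0991). The exact permutation p was 0.465 in run 1, with means of 30.6 and 33.6 CPM, and 0.0108 in run 2, with means of 38.1 and 53.3 CPM. Whether the difference itself depends on the run was tested by an interaction, which did not pass (log2 0.35 ± 0.26 SE, edgeR adjusted p = 0.813). Cnnm3 was higher in run 2 by 0.49 ± 0.13 SE on the log2 scale (edgeR adjusted p = 0.006). Across the deficient lymphomas the correlation of the neighbours did not pass (Pearson r = -0.26, permutation p = 0.445, Spearman rho = -0.07, n = 11). Nor did it pass in the sufficient group (Pearson r = 0.19, permutation p = 0.538, Spearman rho = 0.41, n = 12). There r was 0.77 without the 2 libraries farthest from the median of Cnnm3.

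Cnnm2, on chromosome 19 at 46761596 to 46880192, encodes the family member of the kidney tubule whose loss lowers blood magnesium. It was the only gene of the 6 with a lower mean in deficient lymphomas. Sufficient levels were 2.46, 3.53 and 14.0 CPM (lowest, median and highest), with libraries 11 and 4 at 14.0 and 9.70 CPM well above the others. Deficient levels were 0.496, 2.43 and 6.38 CPM, with 6 of 11 libraries below every sufficient one and library 6 the highest. Means were 4.94 CPM ± 3.56 (n = 12, SD) and 2.64 CPM ± 1.48 (n = 11, SD). The log2 fold change of -0.96 ± 0.37 SE (95% interval -1.73 to -0.19) did not pass the test across all genes (edgeR p = 0.0166, adjusted p = 0.0656). By DESeq2 it passed (-0.95, adjusted p = 0.035), and it also passed edgeR's test without deficient library 6 (-1.12, adjusted p = 0.0288). Sufficient library 11 also had the highest summed monocyte and macrophage markers, 2023 CPM, and sufficient library 4 the highest plasma cell markers, 7066 CPM, of which the J chain gene Igj gave 5859 CPM. Deficient library 6, the highest of its group in Cnnm2, was the one with 301 CPM of Cd2. The part of these transcripts in the Cnnm2 levels was not tested.

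The mixture of the cyclin M transcripts can also be read per length. Cnnm2 made up 10.2% ± 4.56 (n = 12, SD) of the summed Cnnm2, Cnnm3 and Cnnm4 level in sufficient and 4.49% ± 1.99 (n = 11, SD) in deficient lymphomas, with ranges of 5.51 to 19.96% and 0.946 to 7.55% that overlap. The share of Cnnm4 was 29.6% ± 6.46 and 35.3% ± 8.54. Cnnm3 held 60.2% in each group, with SDs of 8.29 and 8.54. These shares were not tested.

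Magt1, on chromosome X at 105968084 to 106011906 on the minus strand, had the highest level of the 6 genes per kb of merged exons in all 23 libraries. Its lowest, median and highest levels were 77.3, 160 and 322 CPM in sufficient and 90.8, 143 and 323 CPM in deficient lymphomas. The ranges were almost the same. Means were 163 CPM ± 69.8 (n = 12, SD) and 175 CPM ± 71.8 (n = 11, SD), and the log2 fold change of 0.20 ± 0.19 SE did not pass the test (95% interval -0.19 to 0.59, edgeR adjusted p = 0.449). With Xist and Y-linked levels as covariates it was 0.12 (edgeR adjusted p = 0.71). Run moved Magt1 the opposite way from Trpm7: it was lower in run 2, with a log2 fold change of -0.74 ± 0.19 SE (edgeR adjusted p = 0.00342).

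Ranked per length, the order Magt1, Trpm7, Cnnm3, Cnnm4, Cnnm2, Trpm6 held in all 12 sufficient libraries. Of the deficient libraries 3 kept this order, 5 had Trpm6 above Cnnm2, and 2, libraries 3 and 8, had Trpm6 above Cnnm4 as well. In the remaining deficient library, Cnnm4 stood above Cnnm3. With the length of the longest coding transcript in place of merged exons, Trpm7 stood above Magt1 in 1 library of each group. No interaction of group and run passed for any of the 6 genes by edgeR, by DESeq2 or by limma-voom. Over all genes the interaction called 0 by edgeR (723, or 6.56%, at an unadjusted p under 0.05), 12 by DESeq2 and 0 by limma-voom.

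**Figure D3:**
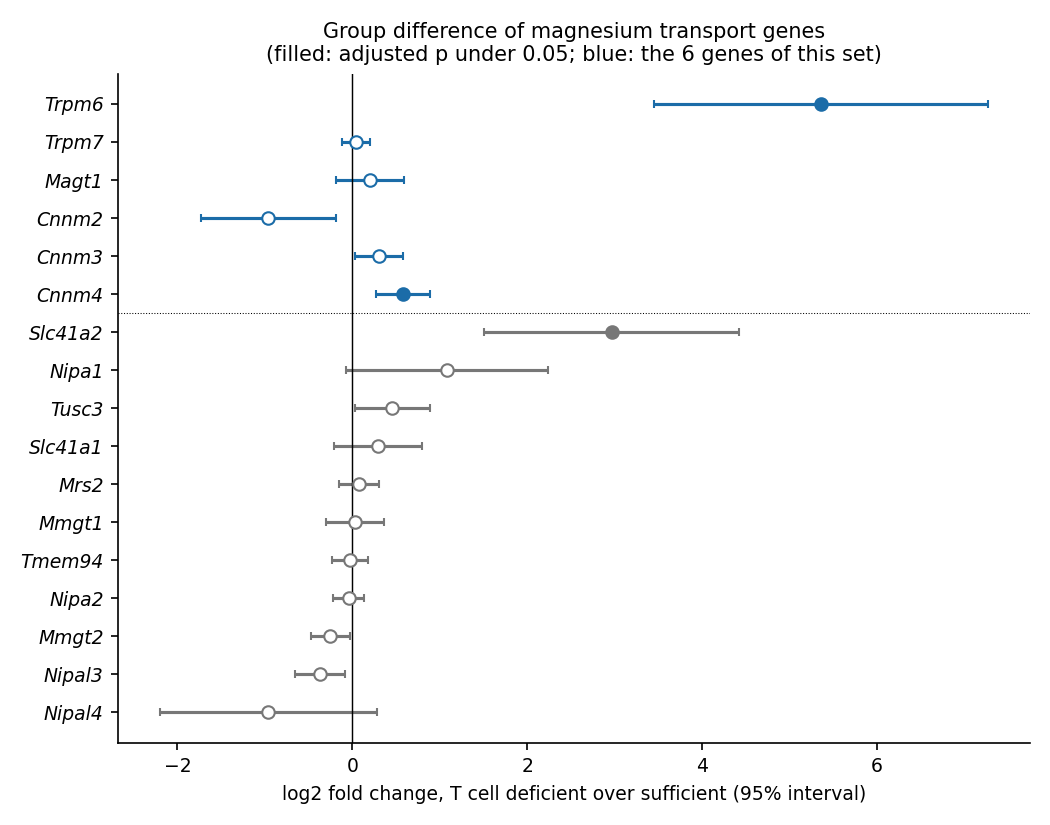
Log2 fold change of deficient over sufficient lymphomas (x axis) with its 95% interval for the 6 genes (blue) and 11 other magnesium transport genes (grey), filled where the edgeR adjusted p is under 0.05. Trpm6, Cnnm4 and Slc41a2 are filled, and the interval of Trpm7 is among the narrowest and spans 0.

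Pairs of the 6 genes were correlated within each group on log2 CPM, 30 correlations in all. Their permutations shuffled libraries across both runs, so run was not held fixed. Of these, 1 passed adjustment by both measures: Trpm7 and Cnnm3 in deficient lymphomas, with a Pearson r of 0.88 (permutation p = 0.00022, adjusted 0.0066) and a Spearman rho of 0.87 (adjusted permutation p = 0.0255, n = 11). Without the 2 libraries farthest from the median of Trpm7, r was 0.79. Both genes were higher in run 2, and with each run centred on its own mean r was 0.66, and 0.55 in the 6 libraries of run 2 alone. The r values of 0.66 and 0.55 were not tested. In sufficient lymphomas the same pair gave an r of 0.50 (permutation p = 0.0946, adjusted 0.324, n = 12). Run 1 holds 5 deficient libraries, too few for a value of its own.

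The deficient lymphomas at the extremes of Trpm6 stood at the other end in Cnnm2, and the remaining ones did not all follow this order. Libraries 3 and 8, with the most Trpm6, had the least Cnnm2, 1.18 and 0.496 CPM, the latter from 6 counts. Library 6, with the least Trpm6, had the most Cnnm2. Pearson's r was -0.69 (permutation p = 0.0125, adjusted 0.125) and Spearman's rho -0.58 (adjusted permutation p = 0.248, n = 11), so the relation did not pass. It was -0.60 without the 2 libraries farthest from the median of Trpm6, -0.88 with runs centred and -0.94 in the 6 libraries of run 2.

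**Figure D4:**
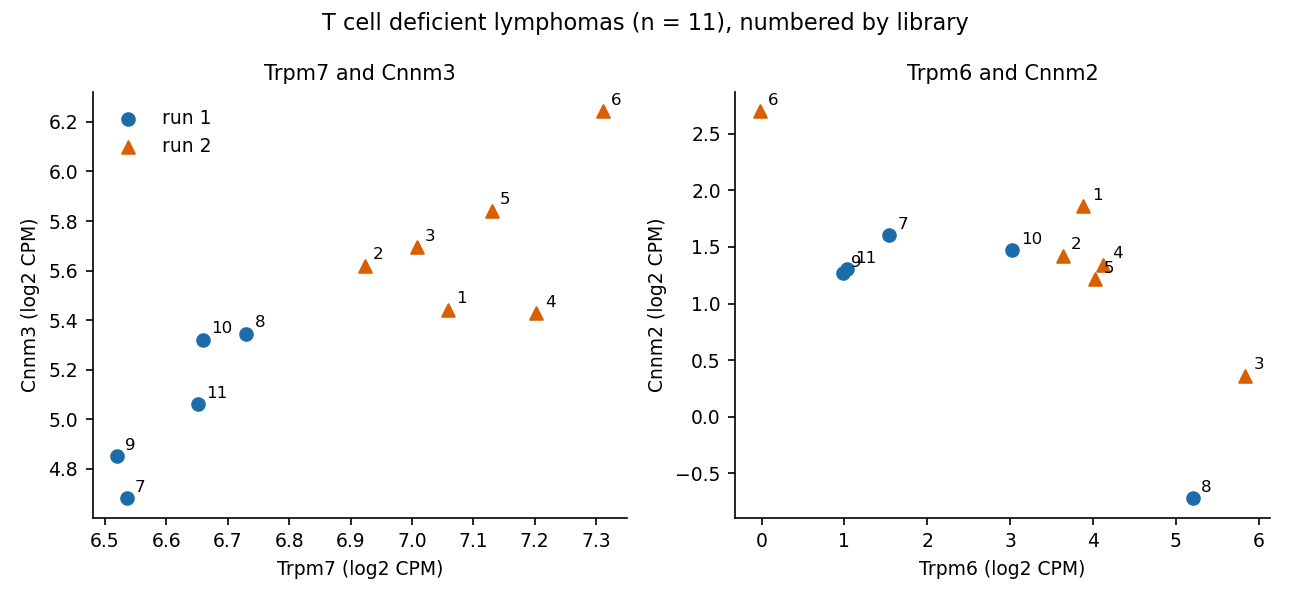
Log2 CPM of Cnnm3 against Trpm7 (left) and of Cnnm2 against Trpm6 (right) in the 11 deficient lymphomas, numbered by library and marked by run (circles run 1, triangles run 2). On the left the run 2 points lie to the upper right of the run 1 points, and on the right libraries 3 and 8 lie lowest and library 6 highest.

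Genes whose pattern was most like each of the 6 were taken as the 3 highest correlations of log2 CPM over all 23 libraries after removing run and group means, among the 10795 genes whose mean log2 CPM reached 1. These are the extremes of many values and carry no test. For Trpm6 they were Dlgap1 (r = 0.82), a postsynaptic scaffold gene, Gtf2h2 (0.78), a subunit of the transcription factor TFIIH, and Isg20 (0.76), an exonuclease induced by interferon. Dlgap1 averaged 1.47 CPM ± 1.58 in sufficient and 5.45 CPM ± 4.05 in deficient lymphomas (edgeR adjusted p = 0.0266), and Isg20 36.3 ± 25.6 and 78.9 CPM ± 42.0 (edgeR adjusted p = 0.0165). By rank within the 11 deficient lymphomas, Specc1 (rho = 0.98), the pattern receptor gene Tlr2 (0.95), Eppk1 (0.95), the peroxisomal transporter gene Abcd3 (0.93) and Vat1 (0.93) followed Trpm6 most closely. Of these 5, Abcd3 passed the test between groups (edgeR adjusted p = 0.028). For Magt1 the closest genes were Morf4l2 (r = 0.95) and Prdx4 (0.90), which also lie on the X chromosome, and Rab1 (0.87). For Cnnm4 they were Itfg3 (0.82), Zfp593 (0.81) and Crybg3 (0.81).

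The 2 nearest tested genes on each side of Trpm6 were Nmrk1 and D030056L22Rik, 97.6 and 31.6 kb before it, and Anxa1 and Zfand5, 1481 and 2379.8 kb after it. None of the 4 passed the test. Zfand5 ran with Trpm6 in the deficient lymphomas (r = 0.91 over 11 libraries, runs not centred, a description). It was at 143 CPM ± 33.3 in sufficient and 163 CPM ± 31.4 in deficient ones (edgeR adjusted p = 0.261). D030056L22Rik averaged 32.2 CPM ± 9.14 (n = 12, SD) and 35.5 CPM ± 5.21 (n = 11, SD), with a log2 fold change of 0.19 (edgeR adjusted p = 0.283). Besides Cnnm3, the nearest tested genes around Cnnm4 were Fer1l5, Lman2l and Ankrd23, and none of the 4 passed.

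Of 15 other genes linked to magnesium transport, 11 were in the table and 1 passed the test, which called 22.2% of all genes. The median log2 fold change of the 11 was 0.03. The gene that passed was Slc41a2, which encodes a magnesium carrier of the SLC41 family. Its levels were 0, 9.02 and 27.3 CPM (lowest, median and highest) in sufficient and 2.82, 72.5 and 318 CPM in deficient lymphomas, with 8 of 11 deficient libraries above every sufficient one. The log2 fold change was 2.97 ± 0.70 SE (edgeR adjusted p = 0.00543). It did not pass by limma-voom (adjusted p = 0.0651). The next genes by p did not pass in this fit: Nipal3, of the NIPA transporter family (72.0 CPM ± 17.3 in sufficient and 58.0 CPM ± 17.5 in deficient lymphomas, edgeR adjusted p = 0.0591), Mmgt2 (34.2 ± 9.17 and 27.2 CPM ± 4.28, 0.0984) and Tusc3, the paralogue of Magt1 (31.5 ± 11.0 and 42.3 CPM ± 13.0, 0.112). Nipal3 passed as lower by DESeq2 (-0.36, adjusted p = 0.0455) and by limma-voom (-0.40, adjusted p = 0.0419), and in 4 of the 23 fits that left out 1 library, those without sufficient library 9 or deficient library 6, 8 or 11. Mmgt2 passed as lower without the 5 libraries that had Xist and Y-linked transcripts together (-0.40, edgeR adjusted p = 0.0265) and without deficient library 3 (-0.31, 0.0431). Tusc3 passed as higher in run 2 alone (0.78, edgeR adjusted p = 0.0148) and without sufficient library 5 or deficient library 7 or 9.

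Trpm6 and Slc41a2, the magnesium transport genes with the largest fold changes, were compared across the deficient lymphomas after their values had been seen. The 3 deficient libraries inside the sufficient range of Slc41a2 were 3, 8 and 7, at 2.82, 4.30 and 16.7 CPM, and the first 2 of these had the most Trpm6. Library 6, with the least Trpm6, had the most Slc41a2, 318 CPM. Every deficient library thus lay above all sufficient libraries in at least 1 of these 2 genes, but Trpm6 alone gave this in 10 of 11. The genes were picked for their large differences, and how often other pairs of genes do the same was not counted. The correlation did not pass (Pearson r = -0.55, permutation p = 0.0817, Spearman rho = -0.43, permutation p = 0.191, n = 11), and r was -0.45 without the 2 libraries farthest from the median of Trpm6.

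**Figure D5:**
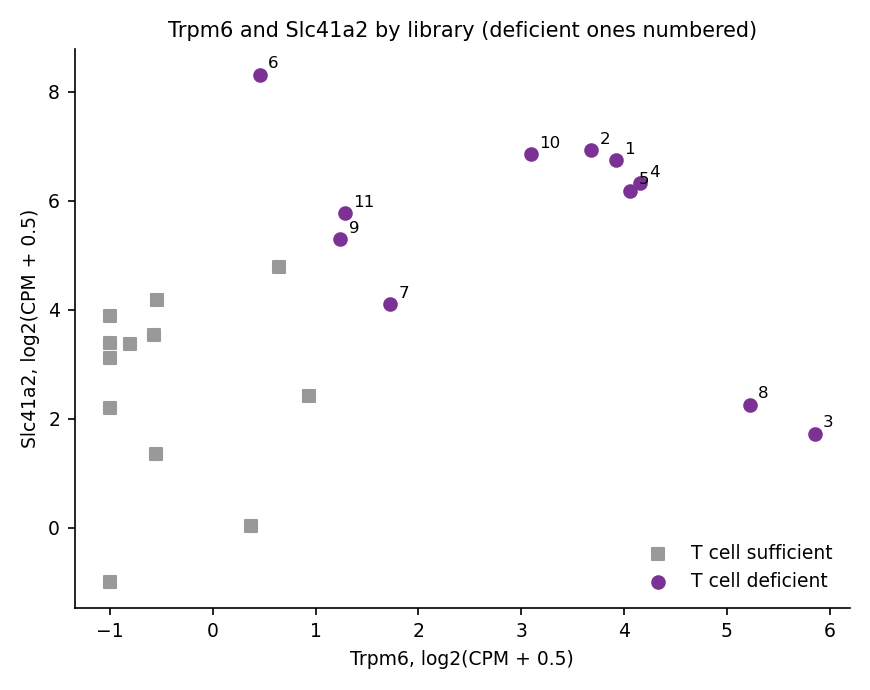
Slc41a2 (y axis) against Trpm6 (x axis), both as log2 of CPM plus 0.5, in 12 sufficient (grey squares) and 11 deficient lymphomas (purple circles, numbered by library). Deficient libraries 3 and 8 lie at the lower right, library 6 at the upper left, and sufficient libraries at the lower left.

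Among 10 partners of the CNNM proteins and regulators of TRPM6, 7 were in the table, 1 rose and 1 fell. Of all genes, 22.2% were called in either direction. The 2 list genes that moved both encode PRL phosphatases, which bind CNNM proteins. Ptp4a3 fell from 525.6 CPM ± 166 (n = 12, SD) to 277 CPM ± 57.6 (n = 11, SD), a log2 fold change of -0.92 ± 0.17 SE (edgeR adjusted p = 0.00095). Ptp4a1 rose from 2.70 CPM ± 0.965 to 4.31 CPM ± 1.02 (log2 fold change 0.71 ± 0.21 SE, edgeR adjusted p = 0.0178). That call was lost in run 1 and in run 2 alone (edgeR adjusted p = 0.254 and 0.231) and with the replicate number as a block (0.0587). Ptp4a2, the remaining PRL gene, named after its values were seen, was at 593 CPM ± 114 and 586 CPM ± 250 (edgeR adjusted p = 0.985). The kinase regulator Rack1, listed under its older symbol Gnb2l1, was at 2594 CPM ± 477 and 2219 CPM ± 687 (edgeR adjusted p = 0.191), and passed as lower in run 2 alone (0.0344) and without deficient library 9 (0.0246).

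Of the other subunits of the oligosaccharyltransferase, of which Magt1 is one, 0 of 10 passed by edgeR, in a test that called 22.2% of all genes. Their median log2 fold change was -0.14. The catalytic subunit gene Stt3b, whose complex holds MAGT1, was at 420 CPM ± 90.01 (n = 12, SD) and 362 CPM ± 40.8 (n = 11, SD), with an edgeR adjusted p of 0.142. Of 6 other TRPM channel genes 3 were tested and 1 fell, against 11.7% of all genes called as lower. Trpm2, which encodes a calcium channel opened by oxidative stress, fell from 14.0 CPM ± 13.5 to 4.67 CPM ± 3.50 (log2 fold change -1.38, edgeR adjusted p = 0.0383), a call that was lost in 11 of the 23 fits that left out 1 library. The call was also lost with Xist and Y-linked levels as covariates (edgeR adjusted p = 0.172) and without the 5 libraries holding transcripts of both sexes (-1.24, 0.101). Trpm5 was at 110 CPM ± 108 and 315 CPM ± 229 and did not pass over all libraries (log2 fold change 1.29 ± 0.62 SE, edgeR adjusted p = 0.139). Without those 5 libraries Trpm5 passed as higher (2.04, edgeR adjusted p = 0.0268), as it did without sufficient library 5 alone (1.57, 0.0494).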

How the data were processed

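RNA from purified splenic B lymphoma cells was sequenced with TruSeq RNA libraries. The authors deposited raw counts for 11140 genes in 23 libraries, with CPM, the counts scaled to each library's total, which the counts reproduce to within 0.0005 CPM. The authors also deposited a comparison of the groups with log2 fold changes, average log2 expression and raw and adjusted p-values. The submitters used limma and the builds mm10 and GRCm38, per the submitters' processing notes, and for the aligner, counter, annotation and strand setting nothing is given in the sources used here. Of 24 samples, the second library of sufficient lymphoma 1 was not analysed here separately, and whether the column for that lymphoma holds 1 or both libraries is not stated. The column taken for sufficient lymphoma 4 carries its number with another suffix and was matched by the number. Every listed gene is above 1 CPM in at least 7 libraries. An antisense gene overlaps exons of Cnnm3 and a miRNA gene overlaps exons of Cnnm4 in GENCODE M21, and without the strand setting their reads cannot be told apart.

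The deposited counts were fitted in edgeR 4.0.16 (R 4.3.3): filterByExpr, which removed 120 genes and left 11020, TMM scaling, and robust quasi-likelihood tests with run and group as terms. Adjusted p under 0.05 is called. Log2 CPM used a prior count of 2. Intervals at 95% use the t quantile times the standard error. Permutation tests of group differences drew 100000 resamples within runs, and those within 1 run enumerated every split. Those of the 30 correlations drew 100000 shuffles of a group's libraries across both runs. Ranks and the t quantile came from SciPy 1.17.1. Lengths and positions are from GENCODE M21, promoters from RefSeq, where all 6 genes matched. Alternatives were DESeq2 1.42.0, limma-voom (limma 3.58.1), other scalings, filters and priors, no run term, single runs, Xist and Y-linked covariates, a block for the replicate number, and leaving out libraries.

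The genes, lists and markers were chosen with earlier results of these data known. Named genes are the 6, list genes with the smallest p (up to 6 a list), the most alike genes and the chromosome neighbours. Tested on simulated counts for this comparison (10983 genes), the fit recovered 17.9% of 1.5-fold, 62.7% of 2-fold and 92.4% of 4-fold changes with the right sign and made 4 false calls. The simulated counts held no difference between runs, whereas 36.3% of all genes were called between runs in the data, so these rates describe a simpler case. Library totals were 7.58 to 30.61 M.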

Additional observations from a re-analysis of the deposited data

Results flagged for a closer look

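Among 24 sets of libraries checked for a value far from its group, 1 was flagged, and chance flags about 1 in 20 such sets. In the 5 deficient lymphomas of run 1, Cnnm2 stood at 0.496 CPM in library 8, and the next lowest library was at 2.30 CPM. Library 8 was also the deficient library with the second highest Trpm6, 36.8 CPM, and the lowest share of Cnnm2 in the summed cyclin M level, 0.946%.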

How the results depend on the processing

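The count of called genes, 2448, was 1359 with run 2 alone and 0 with run 1 alone by edgeR (1832 at an unadjusted p under 0.05), where DESeq2 called 597 and limma-voom 0. In run 1 alone Trpm6 gave 4.78 (edgeR adjusted p = 0.136, DESeq2 0.00902, limma-voom 0.201) and Cnnm4 0.68 (0.185), and in run 2 alone Cnnm4 gave 0.47 (0.14). Cnnm2 passed by DESeq2 (-0.95, adjusted p = 0.035). Leaving out each library in turn, log2 fold changes ran from 4.72 to 5.97 for Trpm6, 0.51 to 0.68 for Cnnm4, -1.12 to -0.64 for Cnnm2, which passed without deficient library 6, and 0.24 to 0.37 for Cnnm3, which passed without sufficient library 4 (0.36, edgeR adjusted p = 0.0389), and the count from 1945 to 2783. The cause of these changes was not tested. Trpm7 and Magt1 passed in no setting run, and none of the 6 genes reversed. With Xist and Y-linked levels as covariates, Trpm6 and Cnnm4 still passed as higher by edgeR. Of the list genes, Arl15 (0.31) had the other sign in run 1 alone (-0.033) and passed in run 2 alone (0.69, edgeR adjusted p = 0.0433). The labels do not say that same-numbered samples are pairs. Correlations of their deviations ran from -0.277 to 0.29, which cannot decide it without differently numbered pairs beside them. With the replicate block Trpm6 gave 5.60 (edgeR adjusted p = 0.00719) and Cnnm4 0.59 (0.0387), the count was 1832, and Ptp4a1 (0.0587), Trpm2 (0.0967), Stim1 (0.0772) and Stim2 (0.0783) no longer passed, whereas Nipal3 did (-0.40, 0.0427). Depth limits Trpm6 in the sufficient group, where 3 counts are worth up to 0.406 CPM.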

Other observations

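Calcium entry genes, whose channels work beside TRPM7 in lymphocytes, moved in both directions. Of 9 listed and tested, 1 rose and 2 fell, with a median log2 fold change of -0.25, in a test that called 22.2% of all genes. Trpv2, a cation channel gene of lymphocytes and macrophages, fell from 89.96 CPM ± 22.6 (n = 12, SD) to 66.6 CPM ± 14.8 (n = 11, SD), a log2 fold change of -0.46 ± 0.13 SE (edgeR adjusted p = 0.0157). That call was lost in run 1 alone, where edgeR called 0 genes, and in run 2 alone. The store sensor genes Stim1 and Stim2 had opposite signs, at -0.34 ± 0.12 SE (edgeR adjusted p = 0.0413) and 0.31 ± 0.11 SE (0.048). Their calls were lost in 12 and 18 of the 23 fits that left out 1 library. The channel genes Orai1, Orai2 and Orai3 did not pass (edgeR adjusted p of 0.301, 0.283 and 0.0812), though Orai3 passed as lower with Xist and Y-linked covariates (-0.41, 0.0317) and without deficient library 11.

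Of 7 genes whose products are reported substrates of the TRPM7 kinase, 1 fell, against 11.7% of all genes called as lower. Their median log2 fold change was 0.05. Myh9, the main non-muscle myosin heavy chain of lymphocytes, fell from 1436 CPM ± 735 (n = 12, SD) to 860 CPM ± 301 (n = 11, SD), a log2 fold change of -0.75 ± 0.18 SE (edgeR adjusted p = 0.00661). Plcg2, the phospholipase of the B cell receptor pathway, was at 917 CPM ± 168 and 958 CPM ± 209 (edgeR adjusted p = 0.796).

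The mitochondrial gene Cox7b, 3.79 kb from Magt1, ran closely with it in the deficient lymphomas (r = 0.95 over 11 libraries, given as a description), and neither gene passed the test between groups.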
